A study of Mus musculus with 14 samples.

Results

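The genes examined were 10 genes of adipocyte identity and of the lipid droplet: Plin1, Plin4, Cidec, Cfd, Adipoq, Fabp4, Pparg, Lpl, Lep and Lipe. They were matched by gene symbol, and all 10 were present among the 16124 genes of the deposited table. Values of the comparison reported here chose them, because lower Plin1, Cidec and Cfd had already been seen in these same libraries, so the differences between the genotypes are given for these genes as a description. The RNA came from mammary epithelial cells that had been isolated from nulliparous females aged 3.5 months, 7 wild-type (WT) and 7 Usp22 OE/OE, 1 library per mouse. The mice were matched as littermate pairs, numbered 1, 3, 4, 5, 6, 7 and 8. OE/OE mice carried on both copies of the ROSA26 locus a tagged mouse Usp22 cDNA under the CAGGS promoter, whose stop cassette had been removed with Zp3-Cre, so the deubiquitinase was overexpressed in all tissues and not in the epithelium alone. WT littermates had no Usp22 insertion, and whether the sequenced mice carried Zp3-Cre is not given. Usp22 itself was between 3500 and 5380 normalized counts in WT and between 74948 and 144288 in OE/OE, and every library matched its label. Values are normalized counts, fragments per gene divided by the size factor of the library. Between 20125106 and 41835978 fragments were counted per library, fewest in WT of pair 1 and next fewest in WT of pair 8. The WT library of pair 1 also stood apart in lymphocyte markers, with a mean log2 level of 8.08 against 4.69 to 5.60 in the other WT mice, and the fold changes of the called genes are also given without pair 1.

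White adipocytes store triglyceride in a single large droplet. Perilipin 1 (Plin1) coats that droplet and holds back the lipases, Cidec makes droplets fuse and grow, and hormone-sensitive lipase (Lipe) breaks down diacylglycerol once the coat opens. Pparg is the transcription factor that drives adipocyte differentiation and keeps the other genes on. Lipoprotein lipase (Lpl) and the fatty acid carrier Fabp4 bring fatty acids in, and adiponectin (Adipoq), leptin (Lep) and adipsin (Cfd) are secreted into the blood. In the mammary gland the ducts lie within a fat pad, and in the preparation used here the glands were digested, the floating fat was discarded and the epithelial organoids were spun down. Several of the genes are also known outside adipocytes, Fabp4 in capillary endothelium and macrophages, and Pparg and Lpl in macrophages.

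The highest marker genes were epithelial, and Lep, Plin1, Cidec and Adipoq were far below them. Levels were compared between genes as fragments per kilobase of annotated exon, scaled to the depth of the library as in FPKM. In WT, Epcam was at 635 ± 127 and Krt8 at 1961 ± 348 (SD, n = 7), whereas Plin1 was at 0.349 ± 0.123, Cidec at 1.06 ± 0.619 and Adipoq at 1.06 ± 0.820 (SD, n = 7). Lep was the lowest of the 10 genes per length, at 0.170 ± 0.132, and rested on 3 to 52 fragments per library. Plin4 followed Adipoq in the order at 2.15 ± 0.790, then Pparg at 4.03 ± 1.52, Cfd at 6.52 ± 3.64 and Lpl at 9.51 ± 5.12 (SD, n = 7). Lipe, at 20.6 ± 4.27, and Fabp4, at 114 ± 51.4, stood above them. Fabp4 was thus higher per length than the endothelial marker Pecam1, at 66.5 ± 11.2 (SD, n = 7). The ranges of mean ± SD of neighbours overlapped along this order except between Lpl and Lipe and between Lipe and Fabp4. The annotated exons of Fabp4 cover its whole span of 4489 bases, which lowers its value per length. Epcam and Krt8 went with the epithelial label, but RNA of other cells was also present. The fibroblast markers Dcn, at 147 ± 41.6, and Col1a1, at 122 ± 46.7, were above the epithelial marker Cldn7, at 93.4 ± 20.0 (SD, n = 7). The 10 genes ran from trace levels up to the level of other cells' markers.

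**Figure D1:**
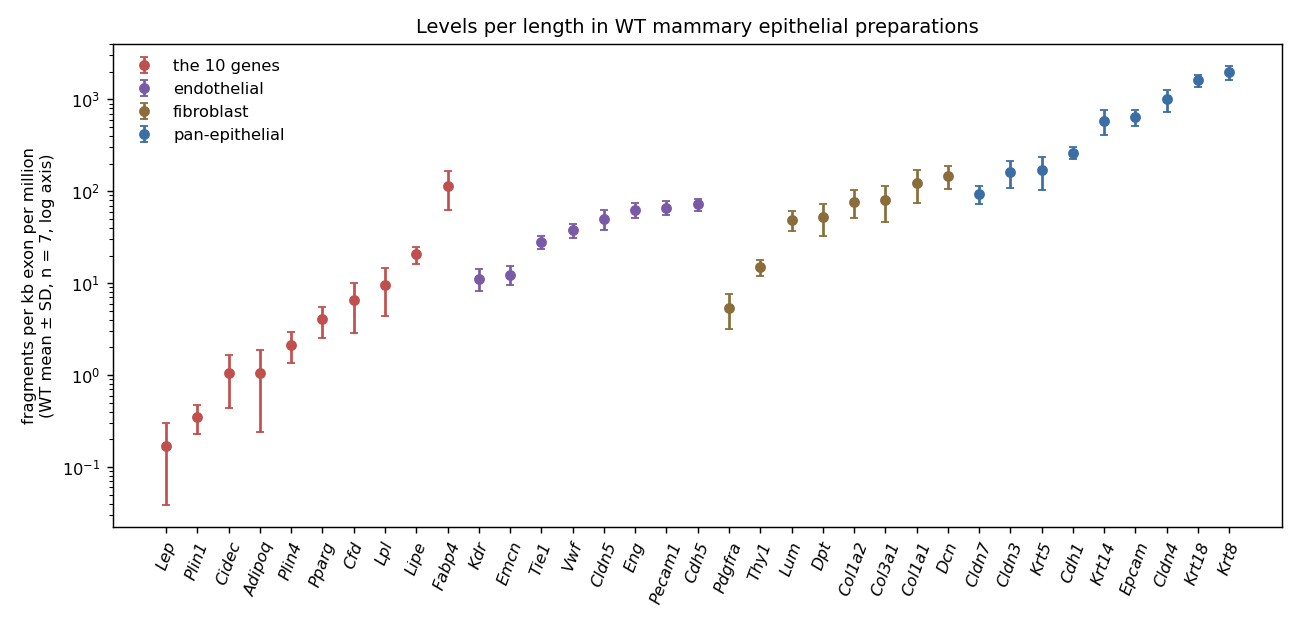
Levels per length in the 7 WT mice, as fragments per kilobase of exon scaled to depth as in FPKM, on a log axis (points, mean; bars, SD), for the 10 genes and for endothelial, fibroblast and epithelial markers. Lep at 0.170 and Plin1 at 0.349 were the lowest of all genes drawn, and Fabp4 at 114 was the only one of the 10 within the range of the epithelial markers.

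The promoters of the scarce, adipocyte-restricted members are shown because Plin1, Cidec, Cfd and Adipoq moved together between the genotypes, and Lep is placed beside them as the other secreted hormone. Of the 10 genes, 8 had a promoter in the RefSeq table (GRCm38.p6), in 12 windows of 300 bases from 250 before to 50 after the start. Fabp4 and Lpl were not matched. Each line gives bases before the start, 5′ to 3′ on the gene's strand, ending before the first base of the GENCODE gene, with capitals marking CCAAT (on either strand) in Adipoq and the C/EBP palindrome in Lep, while the GGGCGG of Lep is left in lower case. The windows are chr7:79732904-79733026 (minus strand, 123 bases), chr6:113435761-113436010 (minus strand, 250 bases), chr10:79890603-79890852 (plus strand, 250 bases), chr16:23146286-23146535 (plus strand, 250 bases) and chr6:29059971-29060219 (plus strand).
Plin1: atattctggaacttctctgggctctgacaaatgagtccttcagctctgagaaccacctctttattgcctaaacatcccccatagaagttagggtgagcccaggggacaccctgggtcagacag
Cidec: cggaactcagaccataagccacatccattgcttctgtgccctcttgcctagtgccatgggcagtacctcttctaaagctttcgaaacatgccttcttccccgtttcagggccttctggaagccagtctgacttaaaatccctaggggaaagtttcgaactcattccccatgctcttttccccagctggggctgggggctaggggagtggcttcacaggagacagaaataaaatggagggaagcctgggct
Cfd: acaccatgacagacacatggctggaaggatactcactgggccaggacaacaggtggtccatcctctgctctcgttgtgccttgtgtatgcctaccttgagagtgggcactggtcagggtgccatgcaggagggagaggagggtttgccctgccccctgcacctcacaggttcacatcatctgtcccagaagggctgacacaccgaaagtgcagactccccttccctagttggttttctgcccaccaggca
Adipoq: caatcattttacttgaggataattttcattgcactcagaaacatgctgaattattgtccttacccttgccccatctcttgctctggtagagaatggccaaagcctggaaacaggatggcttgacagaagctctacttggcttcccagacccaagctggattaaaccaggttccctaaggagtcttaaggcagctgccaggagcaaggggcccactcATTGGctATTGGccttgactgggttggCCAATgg
Lep: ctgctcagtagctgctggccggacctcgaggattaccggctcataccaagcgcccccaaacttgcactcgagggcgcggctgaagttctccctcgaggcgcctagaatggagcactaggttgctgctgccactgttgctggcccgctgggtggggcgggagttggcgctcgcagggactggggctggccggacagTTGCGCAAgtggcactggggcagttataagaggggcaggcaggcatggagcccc
Motifs were searched on both strands of the 300-base windows. The DR1 element bound by PPARG with RXR, a direct repeat of AGGTCA with 1 base between the copies, was in none of the windows of the 8 genes and in 0.0396% of the 32851 windows of all genes. The single AGGTCA, which also lies inside the repeat, was in windows of 1 of the 8 genes, Pparg itself, against 16.3% of all windows. The palindrome TTGCGCAA, a C/EBP site, was in Lep alone of these genes and in 0.183% of all windows, and CCAAT was in 3 of the 8 genes (Plin4, Adipoq and Pparg) and in 37.4% of all windows. The other motifs searched were TATAAA, in 1 of the 8 genes and 13.6% of all windows, and GGGCGG, in 3 of the 8 genes (Pparg, Lep and Lipe) and 35.7% of all windows. The counts are of genes, some of which have more than 1 window, whereas the shares are of single windows, so they are not on the same scale. These letters in a short window say nothing of more distant enhancers.

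The comparison of OE/OE with WT asked whether adipocyte transcripts fell together in the overexpressing mice of each littermate pair. The genes did not behave alike. Plin1, Cidec, Cfd and Adipoq were lower in OE/OE by nearly the same amount, with log2 fold changes between -1.33 and -1.30, and the WT mean of each was 2.16 to 2.40 times its OE/OE mean. The other 6 genes, Lep, Lpl, Fabp4, Plin4, Pparg and Lipe, had log2 fold changes between -0.56 and 0.20. Of the 28 values of the first 4 genes in the 7 pairs, 25 were lower in OE/OE, and of the 42 values of the other 6 genes 22 were. This split was drawn after the values were seen. Fold changes are on the log2(normalized count + 1) scale, which understates those of scarce genes, and come from limma with the pair as a block. An unadjusted p of 0.05 or less, the threshold of the study, was reached by 4 of the 10 genes (Plin1, Cidec, Cfd and Adipoq), each lower, where 1.85% of all genes were called lower, and none was higher, where 1.95% of all genes were. Nothing is read from that count because the genes were chosen on this contrast. With the per-gene paired test of the study on untransformed counts it was 3, Adipoq being lost at an unadjusted p of 0.0518. After Benjamini-Hochberg adjustment over all genes none of the 10 had a limma adjusted p under 0.05 (1.00 for each), nor with edgeR, whereas DESeq2 put Cfd (adjusted p = 0.0400) and Plin1 (adjusted p = 0.0406) under it. The median log2 fold change was -0.46 over the 10 genes and -0.00 over all genes. In bulk RNA, fewer adipocytes and less RNA per adipocyte cannot be told apart.

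**Figure D2:**
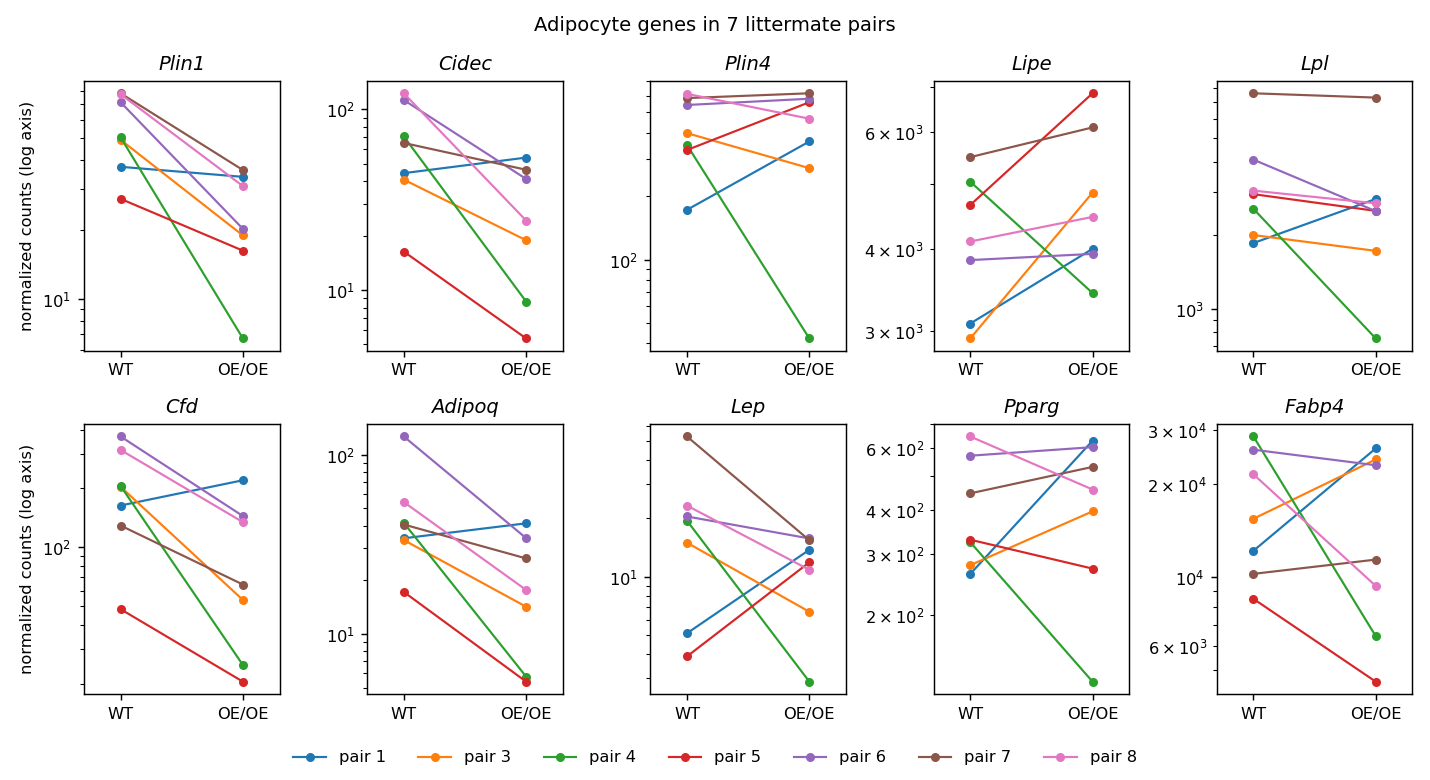
Normalized counts of the 10 genes (log axes, a separate range for each gene) in the WT and OE/OE mouse of each littermate pair, joined by a line per pair. Lines of Plin1 fall in all 7 pairs, those of Cidec, Cfd and Adipoq in every pair but pair 1, and those of Lipe rise in every pair but pair 4.

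Among the droplet proteins, Plin1 (chromosome 7, 79720218 to 79732903) was between 27.2 and 78.3 normalized counts in WT, with a median of 50.4, and between 6.71 and 36.3 in OE/OE, with a median of 20.1. It was lower in all 7 pairs, by as little as -0.14 on the log2 scale in pair 1 and by as much as -2.74 in pair 4, and 6 of the 7 WT mice lay above every OE/OE mouse. Its log2 fold change was -1.30 (standard error 0.28), and 0.62% of all genes were lower in all 7 pairs. Cidec (chromosome 6, 113424634 to 113435760) ran from 16.3 to 123 normalized counts in WT, with a median of 65.1, and from 5.39 to 54.0 in OE/OE, with a median of 24.2. The groups overlapped, 4 WT mice lying above every OE/OE mouse, and Cidec was lower in 6 pairs, the exception being pair 1 at 0.28. The log2 fold change of Cidec was -1.33 (standard error 0.35).

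Plin4, a perilipin of small and nascent droplets, did not follow Plin1. Plin4 (chromosome 17, 56100591 to 56109803) was between 172 and 611 normalized counts in WT, with a median of 398, and between 42.2 and 615 in OE/OE, with a median of 466. It was higher in OE/OE in 4 pairs and lower in 3, and the OE/OE mouse of pair 4, at 42.2, stood far below the next OE/OE mouse at 271. The log2 fold change of -0.28 (standard error 0.41) rested on that pair, being 0.18 without it. Exons of Plin4 share 17 bases with Hdgfl2 on the other strand, and fragments there may not be separated.

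Of the secreted proteins, Cfd (chromosome 10, 79890853 to 79892655) was the most abundant, from 48.2 to 369 normalized counts in WT with a median of 204 and from 20.5 to 220 in OE/OE with a median of 64.4. It was lower in 6 pairs, by -0.99 to -3.00 on the log2 scale, and higher by 0.43 in pair 1, whose OE/OE mouse was the highest OE/OE mouse. The log2 fold change was -1.32 (standard error 0.33). Adipoq (chromosome 16, 23146536 to 23158028) ran from 17.1 to 126 normalized counts in WT with a median of 40.7 and from 5.39 to 41.3 in OE/OE with a median of 17.5. Adipoq was lower in the same 6 pairs, by -0.61 to -2.65, with a log2 fold change of -1.30 (standard error 0.32). Both groups overlapped for these 2 genes, with 2 WT mice for Cfd and 3 for Adipoq above every OE/OE mouse. Lep (chromosome 6, 29060220 to 29073877) was between 3.88 and 52.9 normalized counts in WT and between 2.88 and 15.8 in OE/OE, with medians of 19.4 and 11.9. It was lower in 5 pairs and higher in pairs 1 and 5, by 1.27 and 1.40. Its log2 fold change of -0.56 (standard error 0.47) was -0.25 without pair 4, its pair ratios ran from -2.40 to 1.40, and it rested on 3 to 52 fragments per library.

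The lipases were abundant and not lower as a group. Lpl, which frees fatty acids from circulating lipoproteins (chromosome 8, 68880491 to 68907448), was between 1855 and 7628 normalized counts in WT and between 754 and 7324 in OE/OE, with medians of 2944 and 2513. It was lower in 6 pairs, by -0.06 to -1.76 on the log2 scale, with a log2 fold change of -0.36 (standard error 0.23), and -0.13 without pair 4. Both mice of pair 7 were the highest of their genotype, at 7628 and 7324. Lipe (chromosome 7, 25379527 to 25398710) was between 2927 and 5496 normalized counts in WT and between 3427 and 6861 in OE/OE, with medians of 4099 and 4465. Lipe was higher in OE/OE in 6 pairs and lower in pair 4 alone, with a log2 fold change of 0.20 (standard error 0.14), and 0.33 without pair 4. Without that pair Lipe had an unadjusted limma p of 0.00885, against 0.174 with all pairs. Leaving that pair out also raised the calls over all genes from 614 to 1366. Exons of Lipe share 918 bases with the antisense gene 4732471J01Rik, also in the table. The strand setting of the counting is not given in the sources used here, so fragments of the 2 genes may not be separated.

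Fabp4 (chromosome 3, 10204088 to 10208576) was the most abundant of the 10 genes, from 8518 to 28575 normalized counts in WT with a median of 15475 and from 4595 to 26149 in OE/OE with a median of 11414. It was lower in 4 pairs and higher in 3, with a log2 fold change of -0.36 (standard error 0.34) and pair ratios from -2.15 to 1.10. Without pair 4 the log2 fold change of Fabp4 was -0.06. Pparg (chromosome 6, 115360951 to 115490399) was between 262 and 647 normalized counts in WT and between 129 and 629 in OE/OE, with medians of 329 and 457. The log2 fold change of Pparg was 0.00 (standard error 0.26), from 1.26 in pair 1 to -1.31 in pair 4. The genotypes overlapped almost fully for both genes.

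**Figure D3:**
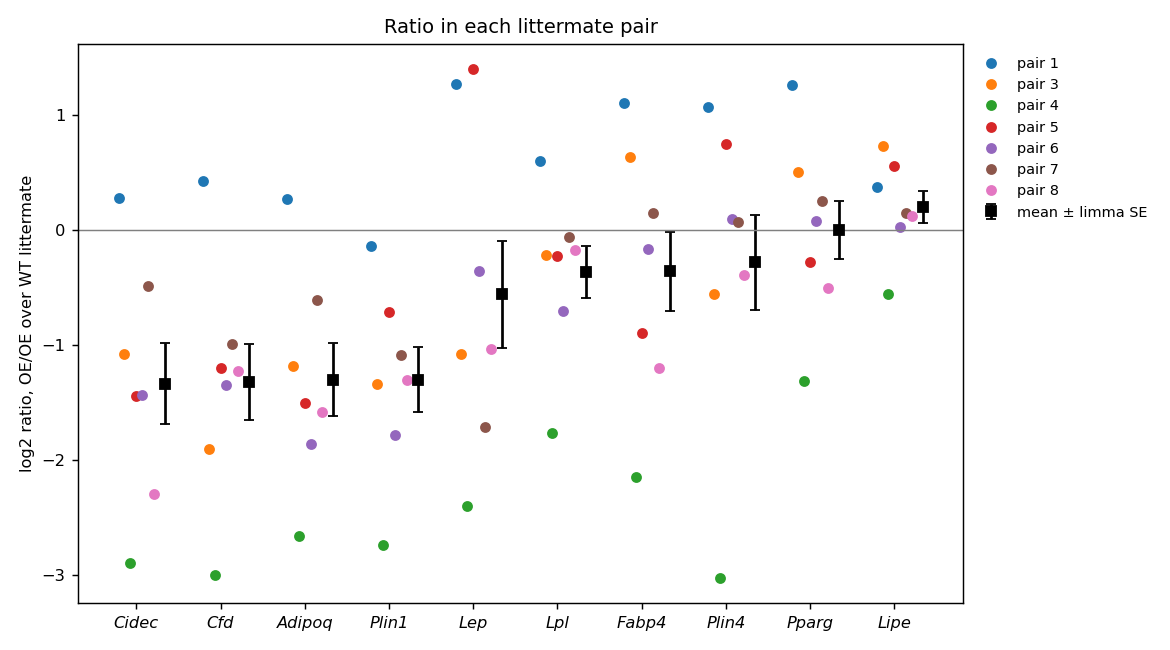
Log2 ratio of OE/OE over its WT littermate for each of the 10 genes (colored points, 1 per pair) with the mean and its limma standard error (black squares and bars). Pair 4 (green) is lowest for every gene, from -3.02 for Plin4 to -0.56 for Lipe, and pair 1 (blue) is above 0 for every gene but Plin1.

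The pairs differed widely. In pair 4 all 10 genes were lower in OE/OE, with a median log2 ratio of -2.53, where 47.8% of all genes were lower. In pair 1 only Plin1 of the 10 was lower and the median was 0.51, with 52.5% of all genes lower. In pairs 3, 5 and 6 it was 7 of the 10 genes, beside 48.9%, 52.3% and 51.3% of all genes. In pair 7 it was 6 of the 10, beside 48% of all genes, and in pair 8 it was 9, beside 47.1%. The medians of these 5 pairs lay between -1.12 and -0.27. Over the 10 genes, 5 were lower in at least 6 pairs, beside 6.79% of all genes, and 6 in at least 5 pairs, beside 23.6% of all genes. The choice of the genes used these counts. For none of the 10 did every OE/OE mouse lie below every WT mouse, as was the case for 0.0124% of all genes. Without pair 4 the log2 fold changes of Plin1, Cidec, Cfd and Adipoq were between -1.08 and -1.04, and without pair 1 between -1.61 and -1.49. All 4 still had an unadjusted limma p of 0.05 or less with either pair left out.

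Markers of other cell types moved beside these genes in some pairs. The mean log2 level of 8 endothelial markers differed by -1.68 in pair 4 and by 0.91 in pair 1, the pairs at the extremes of the adipocyte genes, and by -0.15 to 0.12 in the other 5. Their summed level was 53058 to 78448 normalized counts in WT and 19011 to 111218 in OE/OE, and none of the 8 was called (median log2 fold change -0.09). Of 8 fibroblast markers 3 were called lower (Pdgfra, Lum and Thy1), 37.5% where 1.85% of all genes were, with a median log2 fold change of -0.44 over the 8. Their summed level was 88864 to 178887 in WT and 58132 to 131710 in OE/OE. The fibroblast level was lower in 5 pairs, by -0.45 to -0.97, and higher in pairs 1 and 8, by 0.51 and 0.14. Pericyte markers differed by -1.28 in pair 4 and 0.69 in pair 1, and skeletal muscle markers by -1.78 and 2.11, so that these lists too were at or near their extremes in those pairs. Lymphocyte markers differed by -2.36 in pair 1, where the WT library was high. The 8 macrophage markers had a median log2 fold change of -0.10 with none called, at 5890 to 8753 summed counts in WT and 4451 to 12791 in OE/OE. Of 9 epithelial markers 1 was called, Cldn7, higher, and the list had a median of 0.05, at 323174 to 555990 summed counts in WT and 340681 to 609348 in OE/OE. No endothelial, fibroblast, macrophage or epithelial marker was at 0 in any library. Their part in the values of the adipocyte genes was not tested.

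**Figure D4:**
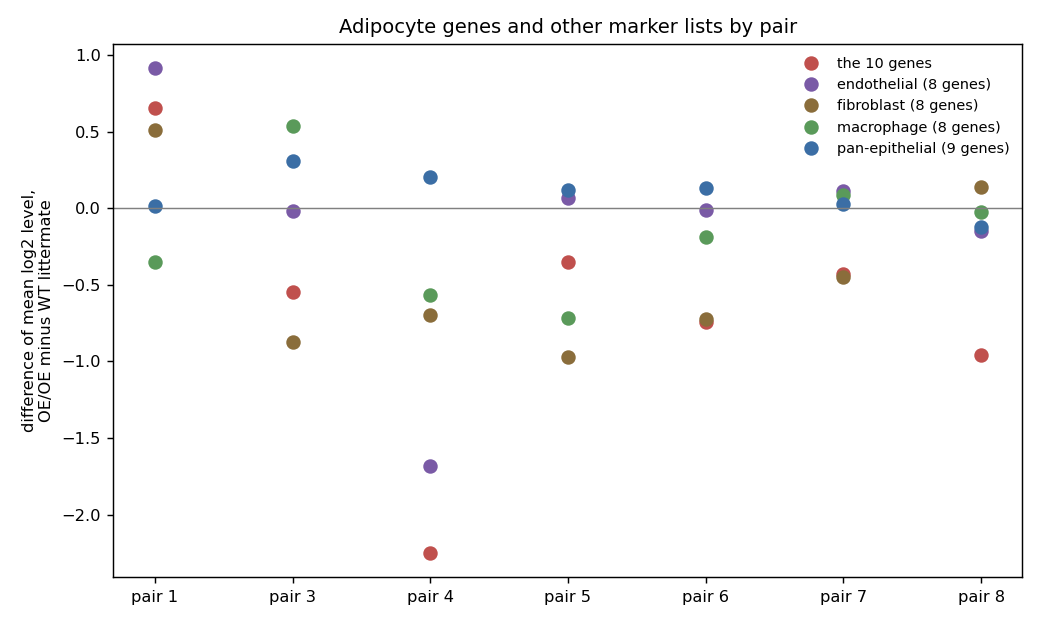
Difference of the mean log2 level between the OE/OE mouse and its WT littermate, by pair, for the 10 genes and for lists of endothelial, fibroblast, macrophage and epithelial markers (points). In pair 4 the 10 genes (-2.25) and the endothelial markers (-1.68) are both far below 0, while in pairs 3, 5, 6, 7 and 8 the endothelial markers stay between -0.15 and 0.12.

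Over both genotypes pooled, the 4 called adipocyte genes varied together from mouse to mouse in a measure that leaves out the mean difference between genotypes. Differences that vary between the littermate pairs remain in it, and the 4 genes were grouped by their difference between genotypes. With the genotype mean taken off, Pearson's r over the 14 libraries was between 0.72 and 0.94 for the 6 pairings of Plin1, Cidec, Cfd and Adipoq, highest for Cidec with Adipoq. Across the pairings of these 4 genes with the other 6 it ran from -0.35 (Cfd with Lipe) to 0.86 (Plin1 with Pparg). In the pairings among the other 6 genes r ran from -0.24 to 0.81, with a median of 0.61, against 0.85 among the 4. Without pair 4 the first range was 0.68 to 0.94. Littermates share their pair, so these r are descriptions of the libraries and carry no p.

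Across the 7 WT mice alone, the 10 genes were set against 5 marker levels, 50 relations in all, and 1 of them passed adjustment. Cidec followed the mean log2 level of 14 other adipocyte genes (such as Trarg1, Adig, Pck1 and Retn) with r = 0.953 (exact permutation p = 0.000794, two-sided, adjusted p = 0.0397) and rho = 0.929 (exact permutation p = 0.00675, adjusted p = 0.169). Without the mice of pairs 5 and 6, farthest from the median of that level, r was 0.921. For Adipoq and the same level r was 0.870 (exact permutation p = 0.00218, adjusted p = 0.0546) and rho 0.964 (exact permutation p = 0.00278, adjusted p = 0.139), and r was 0.914 without these 2 mice. With that level Cfd had r = 0.865 (exact permutation p = 0.00575, adjusted p = 0.0959) and rho = 0.893. Plin1 had r = 0.844 with it (exact permutation p = 0.0194, adjusted p = 0.116) and rho = 0.750. Without these 2 mice r was 0.660 for Cfd and 0.674 for Plin1. Plin1 had r = 0.874 with the endothelial level (exact permutation p = 0.00813, adjusted p = 0.102) and rho = 0.679 (exact permutation p = 0.110, adjusted p = 0.365). Its r fell to 0.392 when the mice of pairs 1 and 5 were both left out. Adipoq also followed the endothelial level, with r = 0.888 (exact permutation p = 0.0121, adjusted p = 0.114) and rho = 0.750. So did Cfd, with r = 0.870 (exact permutation p = 0.0137, adjusted p = 0.114) and rho = 0.821, and Cidec, with r = 0.848 (exact permutation p = 0.0208, adjusted p = 0.116) and rho = 0.714. Without the mice of pairs 1 and 5 r was 0.893 for Adipoq, 0.705 for Cfd and 0.484 for Cidec. Lipe had r = 0.183 with the level of other adipocyte genes (exact permutation p = 0.673, adjusted p = 0.886) and rho = 0.107 (exact permutation p = 0.840, adjusted p = 1.00), and r was 0.601 without the mice of pairs 5 and 6. Without the WT mouse of pair 1, a choice made after seeing the data, r was 0.980 for Cidec, 0.892 for Adipoq and -0.02 for Lipe with the adipocyte level, and 0.852 for Plin1 with the endothelial level. No batch is given in the labels, so values within batches could not be had.

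The genes whose levels were most like the mean standardized level of the 10, over the 14 libraries with genotype means taken off, were Tmem100 (r = 0.970), Serinc3 (0.952), Cd36 (0.951), Gpr4 (0.941), Rgs5 (0.936), Ogn (0.934), Nostrin (0.933), Apold1 (0.931), Ccn5 (0.931) and Cdc42ep2 (0.929). Of these 10 genes Nostrin alone was called between the genotypes, lower in all 7 pairs with a log2 fold change of -0.54 (standard error 0.18). Rgs5, which is in the list of pericyte markers, had a log2 fold change of -0.16 (standard error 0.25). Cd36, the fatty acid translocase, had -0.23 (standard error 0.32). Which cells these genes came from was not tested. These r are a ranking without a test.

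The wider biology of the adipocyte was read from lists written by role, 160 genes of 175 in the table. Of these, 5 were called lower and 2 higher, 4.38% against 3.81% of all genes, a share near the background, and their median log2 fold change was -0.02. The 14 adipocyte markers outside the 10 genes, used above across the WT mice, had 2 called lower (Pck1 and Retn) and 1 higher (Cebpa), 21.4%, with a median log2 fold change of -0.12. Their mean log2 level was lower in OE/OE in 6 of 7 pairs, but their summed level, which abundant genes dominate, was not lower. It was 7418 to 9460 normalized counts in WT (median 8493) and 7583 to 10417 in OE/OE (median 9121). Pck1 at -1.34 and Retn at -1.17 had the largest log2 fold changes of the 14. Among 25 adipogenic transcription factors 1 was called, Cebpa, the partner of Pparg in differentiation, and it was higher: its WT mean of 1660 ± 380 rose to 2077 ± 704 normalized counts (SD, n = 7), a log2 difference of 0.30 (standard error 0.12). Gata3, a brake on differentiation that also marks luminal cells, had 0.21 (standard error 0.10) and Cebpb 0.22 (standard error 0.14). Of 17 other droplet proteins in the table none was called. Hilpda, an inhibitor of lipolysis induced by low oxygen, had a log2 fold change of 0.37 (standard error 0.32). Pcyt1a, which makes phosphatidylcholine for the droplet surface, had 0.09 (standard error 0.10). Plin5, the perilipin of oxidative tissues, had -0.16 (standard error 0.18).

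In lipolysis and its control 1 of 17 genes was called, Pde3b, which relays the effect of insulin by breaking down cAMP, lower at a log2 fold change of -0.34 (standard error 0.15). Ces1d had -0.84 (standard error 0.49), and G0s2, an inhibitor of the lipase Pnpla2, had 0.34 (standard error 0.24). Among 27 genes of fatty acid uptake and triglyceride synthesis, 1 was lower and 1 higher. Pck1, which supplies glycerol 3-phosphate for triglyceride in adipocytes, went from 83.3 ± 61.5 to 32.5 ± 37.4 normalized counts (SD, n = 7), which is -1.34 on the log2 scale (standard error 0.38), and was lower in 6 pairs. Acsl3, an acyl-CoA synthetase of nascent droplets, was higher in all 7 pairs at 0.38 (standard error 0.11). Gpd1 had 0.17 (standard error 0.09). Of 20 other secreted proteins 2 were lower: Retn (resistin), at 24.1 ± 15.4 in WT against 10.6 ± 8.86 (SD, n = 7, normalized counts), a log2 difference of -1.17 (standard error 0.43), and Rbp4, the retinol carrier, at -0.44 (standard error 0.18). Rarres2 (chemerin) had -0.59 (standard error 0.34). The limma adjusted p over all genes was 1.00 for each.

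Of 16 adipocyte receptors and surface proteins in the table none was called, and the median log2 fold change was -0.14. The lowest p were those of Mc5r, at 0.60 (standard error 0.36), Cmklr1, the chemerin receptor, at -0.14 (standard error 0.10) and Ghr at -0.18 (standard error 0.15). Trarg1, a regulator of glucose transporter traffic that adipocytes use, had -0.30 (standard error 0.47), and Adig (adipogenin) had -0.19 (standard error 0.18). Among 22 preadipocyte genes 1 was lower, Pdgfra, which also marks fibroblasts, at a log2 fold change of -0.40 (standard error 0.14), and the median of the list was -0.19. Pi16 had -0.75 (standard error 0.40), and Sfrp4 -0.67 (standard error 0.44).

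**Figure D5:**
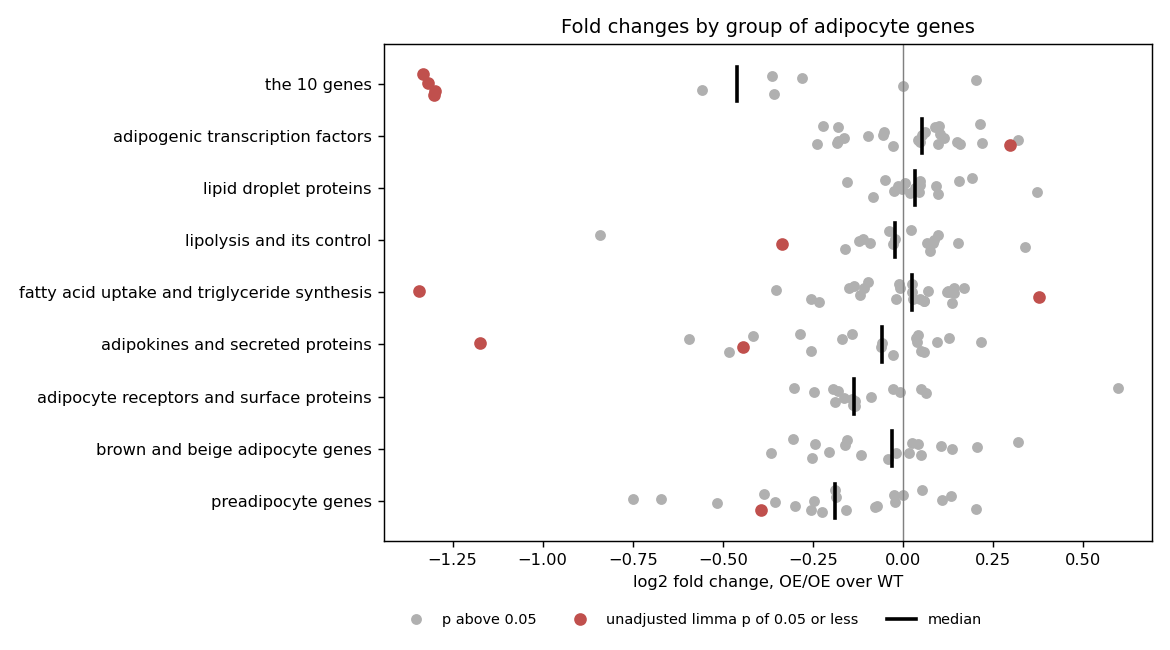
Log2 fold change of each gene (points) by group of adipocyte genes, with the median of each group (black line) with red points where the unadjusted limma p was 0.05 or less. Outside the 10 genes, Pck1 at -1.34 and Retn at -1.17 are the only points below -1, and the medians of the other groups lie between -0.19 and 0.05.

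Cidec lies close to the transgene. In GRCm38 it lies 347.3 kb from Gt(ROSA)26Sor (chromosome 6, 113067428 to 113077333), the locus that was targeted in embryonic stem cells, and Pparg is 2283.6 kb away on the same chromosome. Of the 21 genes of the table within 0.5 Mb of the locus, 4 were called, where 3.81% of all genes were. Setd5, the next gene to the locus, was higher, by 1.82 on the log2 scale. The other 3 were lower, Gt(ROSA)26Sor itself by -0.74, its overlapping neighbor Thumpd3 by -0.21 and Cidec by -1.33. The other 17 genes, which include those on either side of Cidec (Rpusd3 at -0.25 and Jagn1 at -0.13), were not called, and the median over the 21 was -0.10. Plin1, Cfd and Adipoq, on chromosomes 7, 10 and 16, differed by nearly as much as Cidec. The part of the targeted chromosome in the value of Cidec was not tested.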

How the data were processed

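RNA of mammary epithelial cells from 7 WT and 7 Usp22 OE/OE mice was sequenced. Per the labels and methods, TopHat2 2.0.10 aligned the paired reads (mm10), HTSeq 0.6.0 counted fragments per GENCODE gene, and a gene stayed if 7 or more libraries reached 10 fragments. The authors deposited a linear signal, the counts divided by DESeq 1.18.0 size factors. In each library 100% of values were whole multiples (tolerance 0.001) of the value of 1 fragment, which gave fragments and depth. No 2 libraries were alike within counting noise (smallest chi-square per gene 31.0).

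The main test was limma 3.58.1 (R 4.3.3; eBayes with trend) on log2(normalized count + 1) over all 16124 genes with the littermate pair as a block. This limma fit replaced the per-gene paired test of the study, which was kept as an alternative. Its p-values set the mean difference within pairs against how much that difference varied between the pairs, with variances moderated over all genes. The study matched the littermates. Deviations from the genotype mean correlated across genes between same-numbered mice, with r from 0.171 to 0.748 and a median of 0.522. For other combinations of WT and OE/OE mice r ran from -0.538 to 0.634, with a median of -0.151, so the ranges overlapped. Other settings were edgeR 4.0.16 and DESeq2 1.42.0 on recovered fragments, no block, other pseudocounts, a filter, quantile normalization and each pair left out. Members and gene lists were chosen with earlier results of these data known. Named genes were all members, in each list the 3 genes with the smallest p and any gene called, the called genes near ROSA26, and the 10 genes most like the members. Trarg1, Adig, Rpusd3, Jagn1, Cd36 and the marker genes quoted for levels were named after their values were seen. Gene positions and exon lengths came from GENCODE M21 (GRCm38), which all 16124 identifiers matched.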

Additional observations from a re-analysis of the deposited data

Results flagged for a closer look

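The levels of the 10 genes were screened within each genotype, 20 groups of 7 mice, for a mouse whose gap to the nearest other mouse exceeded, as a share of the range, Dixon's 95% critical value. Chance alone flags about 1 group in 20, and 1 group was found. Plin4 was at 5.43 on the log2(normalized count + 1) scale (42.2 normalized counts) in the OE/OE mouse of pair 4, with the next OE/OE mouse at 8.09 (271 normalized counts), a gap of 0.693 of the range. The same mouse had the lowest OE/OE level of Plin1, Pparg, Lpl, Lep and Lipe, without passing that limit for them.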

How the results depend on the processing

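Of 146 recomputed fold changes of the 10 genes, 138 kept their direction and their side of the threshold (unadjusted p of 0.05 or less), 1 lost the call, 2 gained it and 5 changed sign. Plin1, Cidec and Cfd kept both under every alternative that gave a value. Adipoq lost the call in the study's per-gene paired test on untransformed counts (log2 ratio of the means -1.22). The sign changes came from leaving out a pair: Pparg ranged from -0.21 to 0.22 and Plin4 from -0.51 to 0.18. Lpl was called without pair 1 (-0.52) and Lipe without pair 4 (0.33). The count of the 10 genes called lower was 4, and 1 (Cfd) with a minimum mean of 50 normalized counts, because that filter removes Plin1, Cidec and Adipoq from the test. It was 4 to 5 with each pair left out.

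Without the pair as a block 182 genes were called in place of 614, and 2 of the wider adipocyte genes in place of 7, while the 10 genes still gave 4. With each pair left out the number of genes called ranged from 381 (without pair 6) to 1366 (without pair 4), with 1196 without pair 1, and that of the wider adipocyte genes from 3 (without pair 3) to 20 (without pair 1), with 19 without pair 4 and 4 without pair 6 or 7. The cause was not tested. DESeq2 had 19 genes with an adjusted p under 0.05 and limma and edgeR 2. Depth limits Lep most, at 3 to 52 fragments per library.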

Other observations

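Genes of brown and beige adipocytes, which burn fat rather than store it, gave no call: of 22 listed, 18 were in the table, and the median log2 fold change was -0.03. The genes with the smallest p were Elovl6 (0.20, standard error 0.15), Dio2 (-0.37, standard error 0.32) and Tmem26 (-0.24, standard error 0.23). Cidea, the brown fat relative of Cidec, averaged 121 ± 30.5 in WT against 124 ± 24.6 in OE/OE (normalized counts, SD, n = 7), a log2 difference of 0.05 (standard error 0.17). Other listed adipocyte genes, among them Adrb3, Acvr1c, Slc7a10, Mrap and Pnpla3, had no row in the table and are not analysed here.

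Other marker lists showed no call. The median log2 fold change was 0.08 for 8 luminal, -0.04 for 6 basal, -0.06 for 6 pericyte, -0.00 for 6 skeletal muscle, -0.50 for 5 erythroid and -0.24 for 5 lymphocyte markers.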
